A study of Apis mellifera with 138 samples.

Results

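PTP-ER (gene9879 in the deposited counts), DCST1-like (gene4071), cyclin B3 (gene9006) and the unannotated gene LOC100576131 (gene736) are 4 of the 12332 bee genes counted in the abdominal fat body and the brain of single honey bee workers (Apis mellifera). They were chosen from the 6 genes that passed the threshold when fat bodies of antag-305 and antag-missense bees were compared, so their fat body treatment differences are given as a description, without a test. Antagomirs are modified oligonucleotides that bind a microRNA and block it. The target of antag-305 is ame-miR-305-5p, whereas antag-missense served as the control antagomir. Bees of both groups were fed 1000 pmol of antagomir in 30% sucrose solution at 3 days of age, were then caged singly on sucrose solution, and were collected 48 h later at 5 days of age. Each bee came from 1 of 3 colonies, labeled R2, R3 and R42, and each colony was 1 trial, so that a difference between colonies cannot be told apart from one between trials.

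The fat body libraries came from 12 antag-305 and 9 antag-missense bees of colony R2, 12 and 11 bees of colony R3, and 11 and 10 bees of colony R42. The brain libraries came from 12 antag-305 and 11 antag-missense bees of R2, 12 and 11 of R3, and 11 and 10 of R42. Both tissues were available for 65 bees. The 132 libraries used held between 5346264 and 49150105 counts on bee genes, and no more than 0.373% of any library's counts fell on viral genomes. Another 6 libraries, all from antag-missense bees, had viral shares of at least 0.873% and were left out. As a check of the tissue labels, all 4 neuronal markers (Syt1, Syx1A, brp and Nrx-1) were lower in the fat body than in the brain, and 3 of 4 tested fat body markers (Vg, Hex70a and Hex110, but not Tsf1) were higher. The fat body dissections also held muscle and oenocyte transcripts: 4 of 5 tested muscle markers and the oenocyte gene Cyp4g11 were higher than in the brain. In such bulk samples, fewer cells of a type and less RNA per cell cannot be told apart. One brain library, of antag-305 bee 14 of colony R42, stood apart with 1412 CPM (counts relative to the library total after scaling by trimmed mean of M-values) of Cyp4g11, against at most 53.1 CPM in the other 66 brains, and results that rest on it are given with and without it. A further 9 brain libraries formed a cluster of their own when the 67 brains were clustered into 4 on all tested genes other than the 4 described here. They came from 4 antag-305 and 3 antag-missense bees of R2 and 2 antag-305 bees of R3, held between 11892136 and 25568863 counts, and did not overlap with the other 58 brains in 14.1% of 9118 genes. These genes include those that built the clusters, so the share is no independent measure. Of the 4 clusters, this one was set apart because its mean of LOC100576131 was the lowest. Its low level of that gene was thus part of the choice. LOC100576131 had 16.5 to 19.1 CPM in the 9 brains and 26.3 to 55.7 CPM in the 58. Its brain levels and differences are given with and without the 9 brains, and its brain relations within each set of libraries. None of the 9 came from R42, and bees of the same colonies and treatments as the 9 also lay among the 58.

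The insect fat body stores lipid and makes yolk and storage proteins, and combines roles that liver and adipose tissue have in vertebrates. PTP-ER is known from Drosophila as a protein tyrosine phosphatase that acts on the MAP kinase ERK and so dampens signaling downstream of Ras. Cyclin B3 is a mitotic cyclin, a partner of cyclin-dependent kinase in the division of cells, and most cells of the adult brain and fat body have left the cell cycle. DCST1-like is annotated as an E3 ubiquitin-protein ligase of the DC-STAMP family, membrane proteins known for roles in cell fusion and in sperm, and its fly ortholog sneaky is needed in the sperm for its membrane to break down after fertilization. LOC100576131 carries no annotated function in the sources used here.

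In the HAv3.1 genome, PTP-ER (LOC552694) spans 9300 bases of chromosome 12, from 8133490 to 8142789 on the plus strand. DCST1-like (LOC724561) spans 6405 bases of chromosome 5, from 2781433 to 2787837 on the plus strand, and LOC100576131 spans 3397 bases of chromosome 1, from 11535637 to 11539033 on the plus strand. Cyclin B3 (LOC413667) spans 5486 bases of chromosome 11, from 11152971 to 11158456 on the minus strand. Its span shares 474 bases, 8.64% of its length, with LOC413666 on the opposite strand. The library kit kept strand, but the strand setting of the counting is not given in the sources used here, so reads of these 474 bases may belong to either gene. Counts cover whole gene spans, introns included. Per kilobase of span, the median fat body level over both treatments was highest for LOC100576131 (11.2 CPM per kilobase), followed by DCST1-like (7.79), PTP-ER (7.18) and cyclin B3 (3.98). In the brain the order was LOC100576131 (12.03 CPM per kilobase), PTP-ER (8.09), cyclin B3 (5.41) and DCST1-like (0.331). DCST1-like thus stood after LOC100576131 in the fat body and last in the brain.

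PTP-ER was higher in the fat bodies of antag-305 bees and the other 3 genes were lower. PTP-ER had a lowest, median and highest level of 30.6, 80.7 and 152 CPM in 35 antag-305 fat bodies, against 19.3, 48.8 and 113 CPM in 30 antag-missense fat bodies. The groups overlapped over most of their range, and the fitted difference was 0.64 ± 0.13 on the log2 scale (SE). DCST1-like had 15.5, 36.8 and 79.6 CPM in antag-305 fat bodies, against 31.1, 61.8 and 109.7 CPM in antag-missense fat bodies, a fitted log2 difference of -0.60 ± 0.12. Cyclin B3 had 13.5, 19.6 and 27.7 CPM in antag-305 fat bodies, against 18.97, 23.8 and 34.2 CPM in antag-missense fat bodies. Its difference was the smallest of the 4, with a log2 value of -0.27 ± 0.056, and 11.8% of all tested genes had a larger one. LOC100576131 had 14.2, 31.2 and 52.0 CPM in antag-305 fat bodies, against 28.2, 42.7 and 70.3 CPM in antag-missense fat bodies, a log2 difference of -0.44 ± 0.093. These are 4 of the 6 genes called among 8844 (0.0678%) by the comparison that chose them, at a Benjamini-Hochberg false discovery rate (FDR) under 0.05. The FDR was the value that chose the genes, and it is given here only to show where its threshold lay: LOC100576131 (FDR 0.0261) and LOC409822 (log2 difference 1.25, FDR 0.0393) lay just inside it, and LOC410253 (0.57, FDR 0.0767) and LOC100576293 (0.96, FDR 0.0767) just outside.

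**Figure D1:**
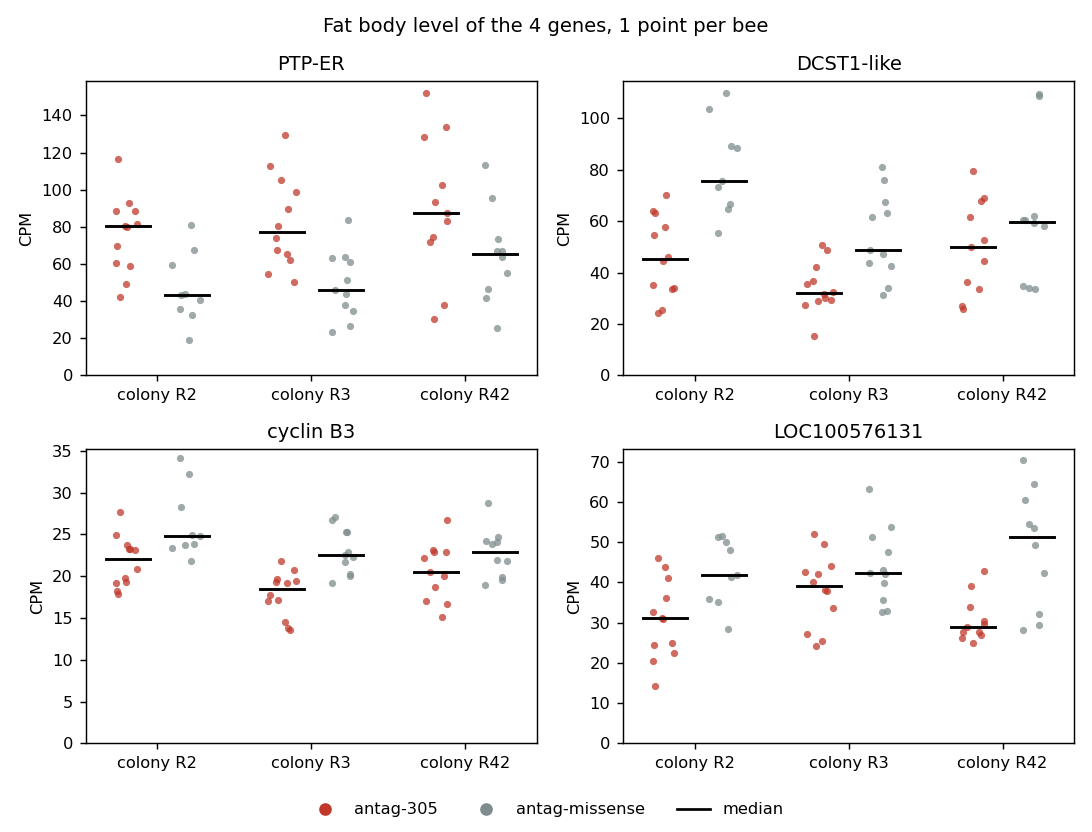
Fat body level in CPM (vertical axes, from 0) of PTP-ER, DCST1-like, cyclin B3 and LOC100576131, with 1 point per bee, antag-305 bees in red left of antag-missense bees in grey within each colony, and black lines at the medians. In colony R2 the median of PTP-ER was 80.2 CPM in antag-305 bees and 43.5 CPM in antag-missense bees, and that of DCST1-like 45.1 and 75.8 CPM, while single bees of the groups overlapped in every panel.

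The 4 fat body differences had the same sign in all 3 colonies. For PTP-ER, the difference of mean log2 CPM was 0.74 in colony R2, 0.80 in colony R3 and 0.45 in colony R42, and the antag-missense median of the colony was exceeded by 11 of 12, 12 of 12 and 9 of 11 antag-305 bees. The differences of DCST1-like were -0.86 in R2, -0.66 in R3 and -0.29 in R42. In R2 the gene showed its widest separation, with 8 of 12 antag-305 bees below the lowest antag-missense bee, whereas in R42 only 3 of 11 were. Cyclin B3 differed by -0.27 in R2, -0.37 in R3 and -0.16 in R42, and no antag-305 bee of R3 exceeded the antag-missense median. LOC100576131 had a different order of colonies, with -0.52 in R2, -0.22 in R3 and -0.60 in R42, and none of 11 antag-305 bees of R42 exceeded the antag-missense median. The same fat body values had chosen the genes, and a choice by 1 difference over all colonies favors genes whose colonies are alike, so the test of unevenness among colonies is no independent one. The edgeR quasi-likelihood test of the interaction of treatment and colony gave unadjusted P values of 0.142 or more, and FDR values of 0.805 (PTP-ER), 0.502 (DCST1-like), 0.525 (cyclin B3) and 0.378 (LOC100576131), whereas it called 10.5% of the 8844 genes.

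**Figure D2:**
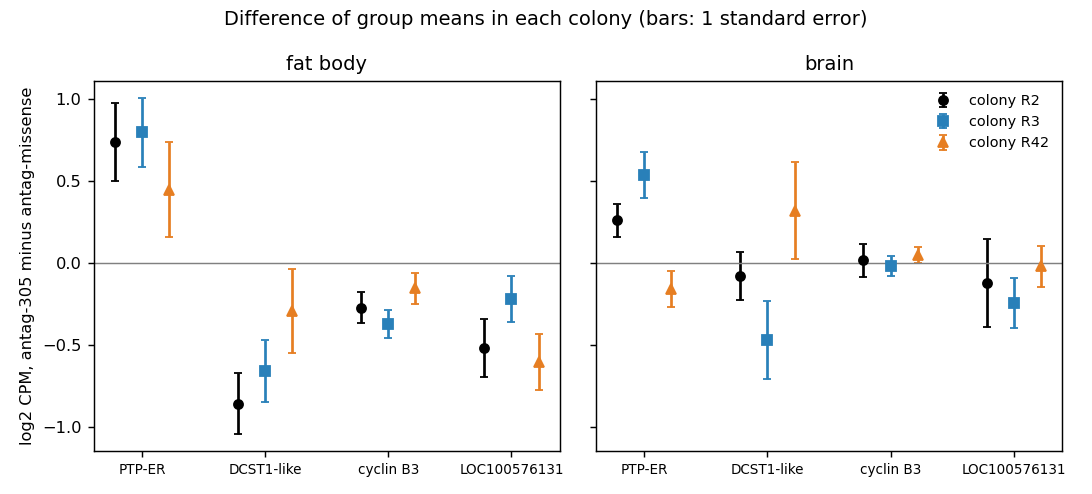
Difference of mean log2 CPM, antag-305 minus antag-missense, of the 4 genes (horizontal axis) in each colony, in the fat body on the left and the brain on the right, with bars of 1 standard error. In the fat body all 12 points lie on 1 side per gene, whereas the brain points of PTP-ER lie at 0.26 (R2), 0.54 (R3) and -0.16 (R42).

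The brain gave values that had not entered the choice of genes. With edgeR, 0 of the 4 genes passed the threshold there, in a comparison that called 11.3% of 9118 genes. An unadjusted P under 0.05 in this test was reached by 1 of the 4, PTP-ER, and by 2951 of the 9118 genes. PTP-ER had the sign it had in the fat body. Its lowest, median and highest levels were 60.9, 81.0 and 116 CPM in 35 antag-305 brains, against 36.4, 72.1 and 105.6 CPM in 32 antag-missense brains. Most bees of the groups overlapped, and the log2 difference was 0.20 ± 0.073 (edgeR, unadjusted P = 0.0072, FDR = 0.0557). The call turned on the processing, as PTP-ER passed with DESeq2's Wald test (FDR = 0.0414), without the brain library of highest viral share (FDR = 0.0449) and without colony R42 (log2 difference 0.38, FDR = 0.00262). Without bee 14 of R42 the difference was 0.22 (FDR = 0.0398). It was 0.16 without the 9 clustered brains (FDR = 0.165), and 0.04 without colony R3 (FDR = 0.806).

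The brain difference of PTP-ER was uneven among the colonies. In R3, where it was largest at 0.54 on the log2 scale, PTP-ER had a lowest, median and highest level of 63.1, 89.2 and 116 CPM in antag-305 brains, against 36.4, 64.7 and 85.4 CPM in antag-missense brains, and 8 of 12 antag-305 brains lay above every antag-missense brain. In R2 the difference was 0.26, and 5 of 12 antag-305 brains lay above every antag-missense brain. In R42 the sign was the opposite, at -0.16, with 60.9, 73.1 and 89.7 CPM in antag-305 brains, against 59.3, 79.3 and 105.6 CPM in antag-missense brains, and only 3 of 11 antag-305 brains exceeded the antag-missense median. The interaction of treatment and colony had an unadjusted P of 0.000265 and ranked 42 among 9118 genes, of which 0.428% were called, but its FDR was 0.0575. It fell under 0.05 with DESeq2's size factors (FDR = 0.0491), with all 69 brain libraries (0.0345) and without the library of highest viral share (0.0484). The brain of bee 14 of R42 had the lowest PTP-ER level of its group, and without it the interaction had an FDR of 0.110, in a test that then called 24 genes in place of 39. Without the 9 clustered brains the FDR was 0.119.

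DCST1-like, cyclin B3 and LOC100576131 differed in the brain by less than the spread between bees. The same held for PTP-ER, at 0.20 against an SD of 0.27 within groups of colony and treatment. DCST1-like had 1.08, 2.11 and 5.83 CPM in antag-305 brains, against 0.926, 2.18 and 5.51 CPM in antag-missense brains, a log2 difference of -0.11 (95% interval -0.40 to 0.17, FDR = 0.583). At this level the gene had between 12 and 98 counts in a brain library, and its highest value belonged to bee 14 of R42. The per-colony differences were -0.08 in R2, -0.47 in R3 and 0.32 in R42, with an interaction P of 0.025 before and an FDR of 0.653 after adjustment. Without bee 14 the log2 difference over all colonies was -0.19 (FDR = 0.310) and the interaction had an FDR of 0.999. Cyclin B3 had 21.6, 30.6 and 40.4 CPM in antag-305 brains, against 23.9, 28.9 and 37.3 CPM in antag-missense brains. Its log2 difference of 0.017 had a 95% interval of -0.07 to 0.10 (FDR = 0.80). LOC100576131 had 16.5, 39.4 and 55.7 CPM in antag-305 brains, against 17.4, 42.1 and 54.8 CPM in antag-missense brains, with a log2 difference of -0.11 (95% interval -0.32 to 0.10, FDR = 0.451). The 9 clustered brains make up the low end of both groups, and without them its levels were 26.3, 40.6 and 55.7 CPM in 29 antag-305 brains, against 28.1, 42.8 and 54.8 CPM in 29 antag-missense brains (log2 difference -0.05, FDR = 0.621). Whether the treatment differences themselves differed between fat body and brain was not tested, since the fat body contrast had chosen the genes.

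**Figure D3:**
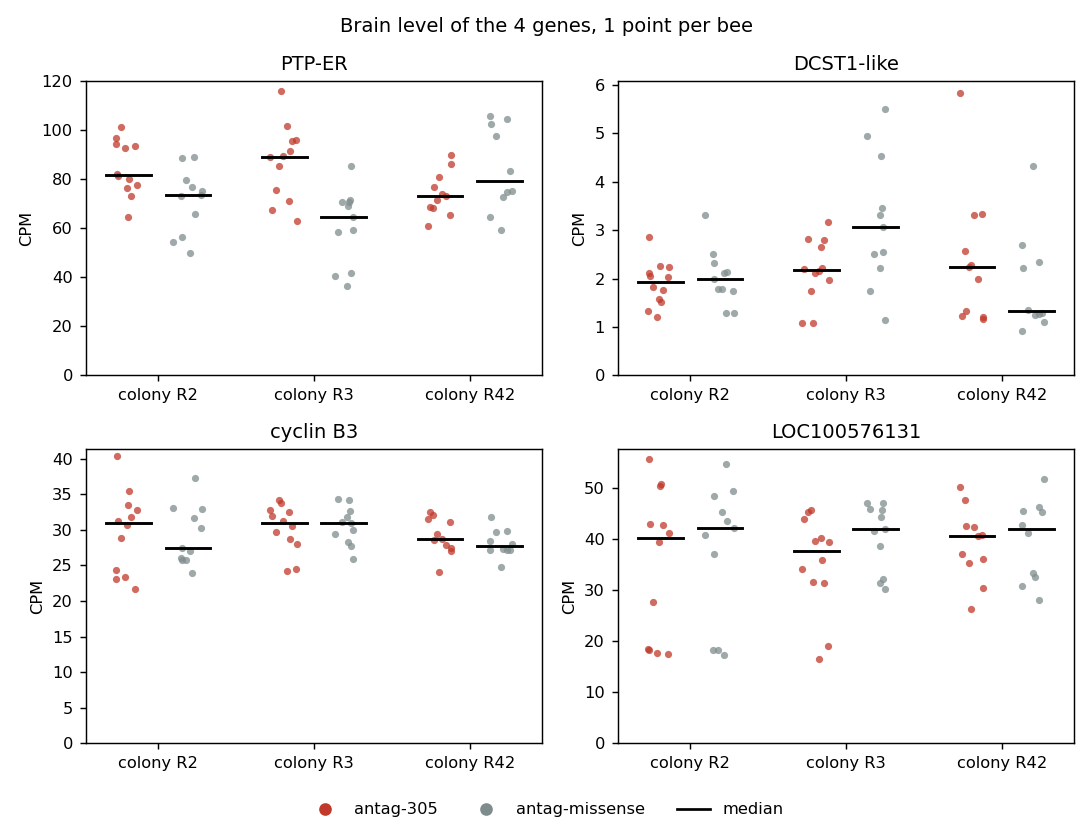
Brain level in CPM (vertical axes, from 0) of the 4 genes, with 1 point per bee, antag-305 bees in red left of antag-missense bees in grey within each colony, and black lines at the medians. PTP-ER in colony R3 shows the widest separation (medians of 89.2 CPM in antag-305 bees and 64.7 CPM in antag-missense bees), and the highest DCST1-like point, at 5.83 CPM, is bee 14 of R42. LOC100576131 lies between 16.5 and 19.1 CPM in 7 bees of R2 and 2 of R3, apart from the other 58 bees.

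Between tissues, the difference of DCST1-like was of another order than that of the other genes. Tissues were compared within the 65 bees that had both libraries, on a scale common to both tissues, and the test used the antag-missense bees, whose fat bodies had also entered the choice of genes. DCST1-like had a lowest, median and highest level of 32.4, 63.1 and 116.2 CPM in the fat bodies of 30 antag-missense bees, against 1.01, 2.33 and 5.89 CPM in their brains. The tissues did not overlap, and the fat body was higher in 30 of 30 antag-missense and 35 of 35 antag-305 bees. Its log2 difference of 4.74 ± 0.16, a 26.7-fold higher level in the fat body (edgeR, FDR = 3.54e-39), was exceeded in size by 5.53% of the 8282 genes tested in both tissues. Of these genes 90.3% were called, so a call alone sets no gene apart.

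The other 3 genes differed far less between the tissues. Cyclin B3 was lower in the fat body, with 19.8, 24.2 and 36.3 CPM in antag-missense fat bodies, against 24.3, 30.0 and 37.6 CPM in the brains of the same bees. The fat body was higher in 3 of 30 antag-missense and 0 of 35 antag-305 bees, and the log2 difference was -0.30 ± 0.053 (FDR = 7.06e-07). PTP-ER had 18.0, 51.0 and 118.2 CPM in antag-missense fat bodies, against 35.0, 74.5 and 116.3 CPM in the brains, a log2 difference of -0.49 ± 0.12 (FDR = 1.13e-04), and the fat body was higher in 7 of 30 bees. In antag-305 bees the PTP-ER medians were close, at 85.5 CPM in the fat body and 83.4 CPM in the brain, and 19 of 35 bees were higher in the fat body. LOC100576131 had 29.1, 44.9 and 69.5 CPM in antag-missense fat bodies, against 19.2, 42.6 and 53.5 CPM in the brains, a log2 difference of 0.22 ± 0.11 that did not pass the threshold (FDR = 0.0524), and the fat body was higher in 18 of 30 bees. In antag-305 bees the order of its medians was the other way round, at 33.0 CPM in the fat body and 40.7 CPM in the brain, and 15 of 35 bees were higher in the fat body. The difference in antag-missense bees passed without a filter on low counts (FDR = 0.0365) and without the block on bees (FDR = 0.0357), whereas without the 9 clustered brains the difference was 0.11 (FDR = 0.222).

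**Figure D4:**
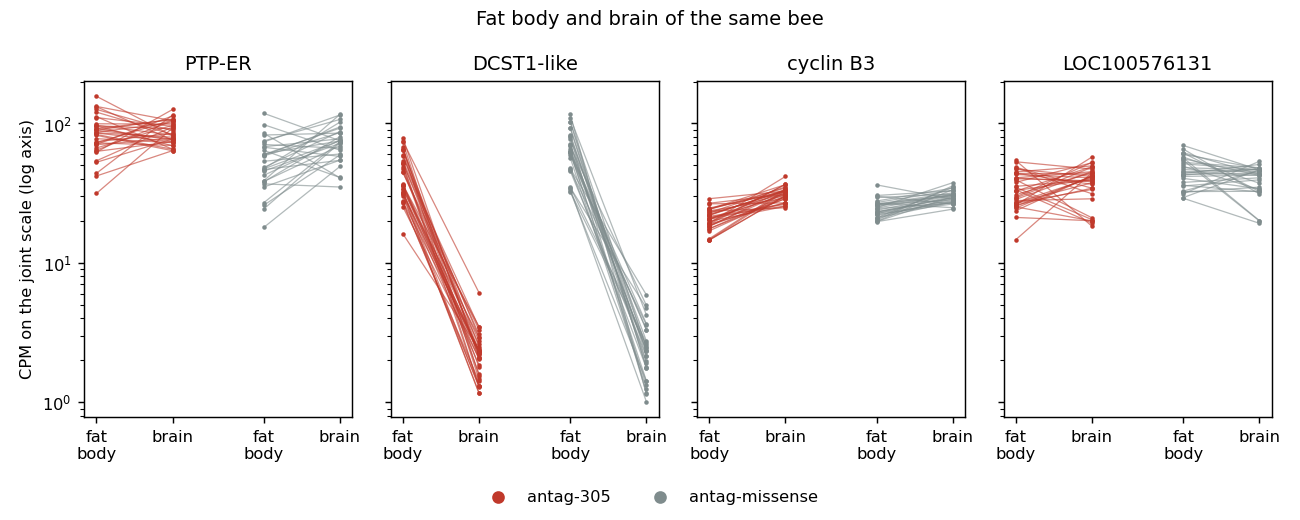
Level of the 4 genes in the fat body and the brain of the same bee, joined by a line, in CPM on the scale common to both tissues (log axis), with antag-305 bees in red and antag-missense bees in grey. Every line of DCST1-like is higher at its fat body end (medians 63.1 and 2.33 CPM in antag-missense bees), and those of cyclin B3 are lower there in all but 3 of the 65 bees.

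Among colonies, DCST1-like and cyclin B3 were called in the fat body. There, DCST1-like had 15.5, 42.2 and 80.9 CPM in 23 bees of R3, against 24.2, 63.1 and 109.7 CPM in 21 bees of R2. It was lower in R3 by a log2 difference of -0.49 ± 0.15 (edgeR, FDR = 0.0173), in a contrast that called 13.9% of 8844 genes. In R42 its median was 58.2 CPM and its highest level 109.2 CPM, and R42 was higher than R3 by 0.38 ± 0.15 (FDR = 0.0282), in a contrast that called 45.7% of genes. With all 69 fat body libraries the call between R42 and R3 was lost (FDR = 0.0531). Cyclin B3 had 13.5, 20.01 and 27.1 CPM in R3, against 17.9, 23.4 and 34.2 CPM in R2, a log2 difference of -0.24 ± 0.068 (FDR = 0.0109). LOC413666, which shares 474 bases with cyclin B3, differed in the opposite direction in the same contrast (0.71, FDR = 0.0335). Neither gene passed between R42 and R2 (15.9% of genes called), and PTP-ER and LOC100576131 passed in none of the 3 contrasts. The largest of their differences was that of PTP-ER between R42 and R2, at 0.35 ± 0.16 (unadjusted P = 0.0341, FDR = 0.132).

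In the brain, edgeR called 0 of the 4 genes between colonies, where the contrasts of R3 with R2, R42 with R2 and R42 with R3 called 17%, 23.9% and 18.6% of 9118 genes. The nearest was DCST1-like, which in the brain was higher in R3 than in R2 (0.44 ± 0.17, unadjusted P = 0.0145, FDR = 0.0739), with the opposite sign to its fat body difference. This was the single unadjusted P under 0.05 among the 12 tests. Over all 9118 genes, the 3 contrasts had 2587, 3401 and 2759 genes under 0.05 before adjustment, in the same order. The levels of DCST1-like were 1.08, 2.51 and 5.51 CPM in 23 brains of R3, against 1.20, 1.98 and 3.32 CPM in 23 brains of R2. The ranges overlapped over most of their length. The call passed without bee 14 of R42 (0.44, FDR = 0.0457) but not without the 9 clustered brains (0.42, FDR = 0.159). Cyclin B3 was called in brains once the 9 were left out. It then had 24.1, 28.5 and 32.6 CPM in 21 brains of R42, against 25.8, 31.8 and 40.4 CPM in 16 brains of R2 and 25.8, 31.2 and 34.3 CPM in 21 brains of R3. R42 was lower than R2 (log2 difference -0.14, FDR = 0.0149) and lower than R3 (-0.12, FDR = 0.0300), in contrasts that called 1419 and 1939 of 9118 genes. With all brains the same differences were -0.04 (FDR = 0.608) and -0.08 (FDR = 0.312). The 9 were chosen for low LOC100576131, which went with cyclin B3 in brains, and held 21.6 to 26.1 CPM of cyclin B3. They came from R2 and R3 alone, so leaving them out raises the levels of those colonies. The calls without them are therefore no independent test. Whether colony differences differed between the tissues was not tested.

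The 4 genes varied among like bees to different extents. Within groups of 1 colony and 1 treatment, log2 CPM in the fat body had an SD of 0.56 (PTP-ER), 0.50 (DCST1-like), 0.38 (LOC100576131) and 0.21 (cyclin B3), against a median of 0.41 over all genes. Cyclin B3 was thus among the steadier fat body genes: 5.0% of all genes, and 2.6% of the 500 genes nearest to it in level, had a smaller SD. PTP-ER was among the more variable, with 86.6% of the 500 genes of like level below it. In the brain, PTP-ER had an SD of 0.27 and cyclin B3 of 0.18, against a median of 0.28. LOC100576131 had an SD of 0.47, which exceeded those of 91.4% of genes of like level, and DCST1-like had one of 0.54 at its low counts. Without the 9 clustered brains, which were chosen for their low LOC100576131, the SD of that gene was 0.26, against a median of 0.24 over all genes. Among these 58 brains the SD of cyclin B3 was 0.13 and that of PTP-ER 0.29. At the median of 447 counts that cyclin B3 had in a brain, counting error alone gives an SD of 0.068.

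Across bees, LOC100576131 took part in every relation that passed when adjusted over the 16 tested. Relations were computed on log2 CPM with the mean of each group of colony and treatment removed, so the treatment difference did not enter them, and 16 were tested: 6 pairs of genes in each tissue, and each gene's fat body level against its own brain level. LOC100576131 was low in fat bodies in which PTP-ER was high (r = -0.56, rho = -0.60, n = 65, within-group permutation test with 100000 resamples, two-sided, adjusted P = 8e-05 and 5.3e-05). The raw P values behind these are the smallest that 100000 resamples can give. The relation had the same sign in R2 (r = -0.63), R3 (-0.63) and R42 (-0.48), and r was -0.54 without the 2 bees farthest from the median. LOC100576131 was also high in fat bodies in which cyclin B3 was high (r = 0.52, rho = 0.51, n = 65, permutation test, adjusted P = 0.00016 for both), with r of 0.67 in R2, 0.22 in R3 and 0.65 in R42, and 0.51 without the 2 farthest bees. A weaker relation of LOC100576131 with DCST1-like in the fat body passed for r (-0.33, n = 65, permutation test, adjusted P = 0.043) but not for rho (-0.26, adjusted P = 0.135), had r = -0.03 in R2, and did not pass with DESeq2's size factors (r = -0.26, adjusted P = 0.114).

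In the brain, where the 9 clustered libraries lay apart, the relations of LOC100576131 are given within the other 58 and within the 9. The 9 were set apart for their low LOC100576131, so both sets were chosen on 1 of the 2 values related. P values within the sets are thus no independent test. LOC100576131 was low in brains in which PTP-ER was high (r = -0.42, rho = -0.38, n = 58, permutation test, adjusted P = 0.0042 and 0.0171). The r was -0.30 in R2, -0.54 in R3 and -0.41 in R42, and -0.44 without the 2 farthest bees. By treatment it was -0.66 in 29 antag-305 brains and -0.29 in 29 antag-missense brains. Within the 9 the pair had r = -0.35 and rho = -0.22 (exact within-group permutation test over 288 orders, adjusted P = 0.746 and 0.826 over 6 pairs). LOC100576131 was high in brains in which cyclin B3 was high (r = 0.44, rho = 0.40, n = 58, permutation test, adjusted P = 0.00389 and 0.0139). The r was 0.44 in R2, 0.29 in R3 and 0.59 in R42, and 0.44 without the 2 farthest bees. By treatment it was 0.61 in 29 antag-305 brains and 0.28 in 29 antag-missense brains. Within the 9 this pair had r = 0.53 and rho = 0.65 (exact permutation test, unadjusted P = 0.0174 and 0.0451, adjusted P = 0.104 and 0.271). Over all 67 brains, where the gap between the sets enters, r was -0.42 for LOC100576131 with PTP-ER and 0.77 with cyclin B3. The adjusted P values of these were 0.00052 and 8e-05 over the 16 relations (permutation test). Among the other pairs, PTP-ER and DCST1-like had r = -0.32 and rho = -0.29 over the 58 brains (permutation test, adjusted P = 0.0617 and 0.114 over 16 relations, and 0.0459 and 0.0736 over the 6 brain pairs), and PTP-ER and cyclin B3 had r = 0.06. None of the 4 relations of a gene's fat body level with its brain level passed, over 65 bees (r between -0.06 and 0.15, adjusted P of 0.509 or more, permutation test) or without the 9 (r between -0.11 and 0.16).

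**Figure D5:**
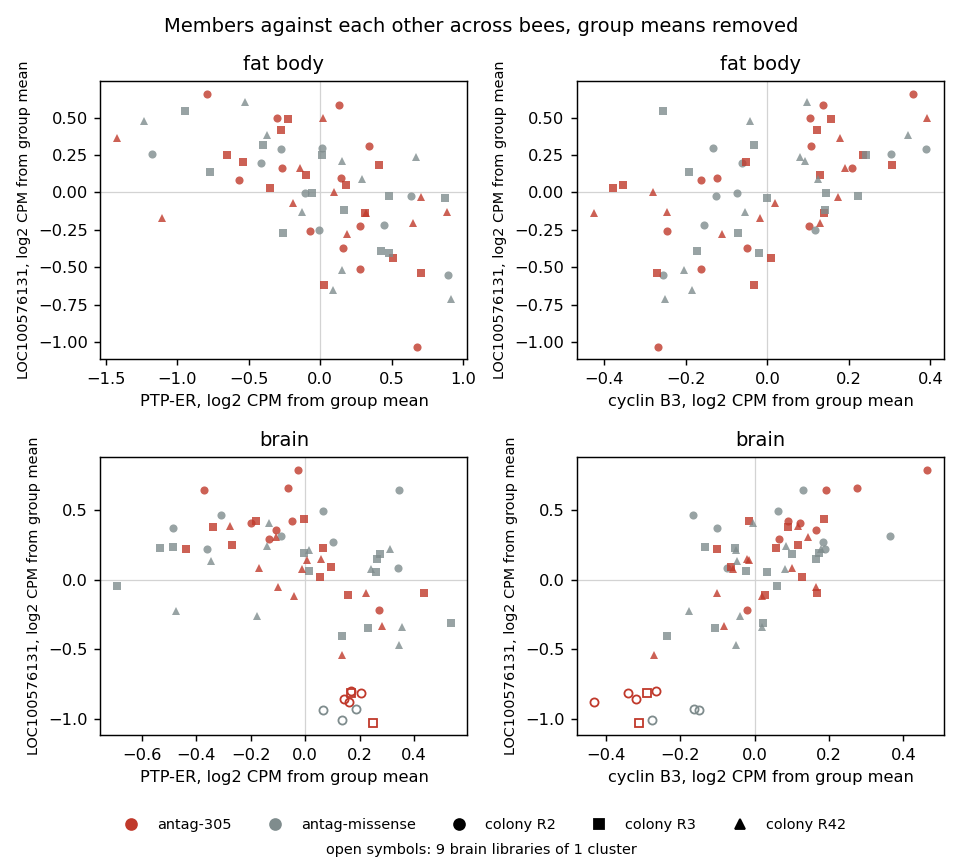
LOC100576131 (vertical axes) against PTP-ER (left) and cyclin B3 (right) in the fat body (top) and the brain (bottom), in log2 CPM from the mean of the bee's group, with 1 point per bee, antag-305 bees in red, antag-missense bees in grey, colonies by symbol and open symbols for the 9 clustered brains. In the brain panels, the group means are those of all 67 brains, whereas r was computed from group means of the 58 alone. The points fall with PTP-ER (r = -0.56 in the fat body, -0.42 in the 58 brains of filled symbols) and climb with cyclin B3 (r = 0.52 and 0.44). The open symbols lie below all filled ones in the brain panels.

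LOC100576131 and PTP-ER both varied with a pattern that many genes shared, whereas cyclin B3 did not in the fat body or the 58 brains. The first principal component of the group-centered values held 45.5% of the variance among fat bodies and 37.7% among the 58 brains, and followed library size (r = 0.62 and 0.55). In the fat body it had r = 0.60 with PTP-ER, -0.53 with LOC100576131, 0.08 with DCST1-like and 0.06 with cyclin B3. In the 58 brains it had r = 0.87 with PTP-ER, -0.51 with LOC100576131, -0.24 with DCST1-like and -0.03 with cyclin B3. Over all 67 brains the first component had r = -0.48 with cyclin B3. PTP-ER accordingly had an absolute r over 0.5 with 31% of all genes in the fat body and 51.6% in the 58 brains, and LOC100576131 with 18.8% and 23.9%, whereas DCST1-like had one with 0.226% and 0.0877%. With the component removed as well, an alternative chosen after the data were seen, the fat body relations of LOC100576131 kept their sign (r = -0.36 with PTP-ER and 0.66 with cyclin B3). In the 58 brains its relation with cyclin B3 passed as before (r = 0.49, permutation test, adjusted P = 9e-04 over 6 pairs), and its relation with PTP-ER was lost (r = 0.09, adjusted P = 0.736). Removing library size alone took the relation with PTP-ER in the 58 brains to -0.27 (permutation test, adjusted P = 0.0786 over 6 pairs). The component of all libraries of a tissue also entered the treatment fits as a covariate: the fat body differences were then 0.62 (PTP-ER), -0.61 (DCST1-like), -0.27 (cyclin B3) and -0.38 (LOC100576131), and the brain difference of PTP-ER was 0.10 (FDR = 0.298).

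Markers of several cell types moved with PTP-ER in the fat body. Its r was 0.77 with the oenocyte gene Cyp4g11 and 0.59 with the hemocyte gene PPO. With summed levels it was 0.73 for 7 muscle markers, 0.63 for 5 fat body markers and 0.62 for 3 germ line markers. Single members departed from these sums, with -0.23 for the muscle marker TpnCIIIb and 0.23 for the germ line marker vas. The sum of 9 hypopharyngeal gland markers had r = 0.30, and the glial gene Eaat-2 had -0.39. Over all genes the median absolute r with PTP-ER was 0.35, and 80.7% of genes had a smaller one than PPO. The sum of 4 neuronal markers had r = -0.21 with PTP-ER, but its members went opposite ways, with 0.58 for Syt1, 0.12 for Syx1A, -0.63 for brp and -0.64 for Nrx-1. The summed muscle markers had a lowest, median and highest level of 1385, 3285 and 4820 CPM in antag-305 fat bodies, against 1481, 3009 and 4442 CPM in antag-missense fat bodies, and none of the 7 was at 0 in all bees of a group. Cyp4g11 had 2639, 24137 and 49584 CPM in antag-305 fat bodies, against 2447, 18931 and 42618 CPM in antag-missense fat bodies. Both sets of values overlapped over most of their range, and neither Cyp4g11 (log2 difference 0.30, FDR = 0.646) nor any of the 7 muscle markers was called between treatments. LOC100576131 had the opposite sign with these sums (-0.51 with Cyp4g11, -0.51 with muscle markers), and DCST1-like (0.25 and 0.27) and cyclin B3 (-0.29 and -0.24) were weaker. The part of these markers in the treatment values of PTP-ER and LOC100576131 was not tested.

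Each gene had its own set of close companions in the fat body. PTP-ER was most like LOC410167 (r = 0.86 over 65 fat bodies, group means removed), LOC551924 (0.85) and LOC552793 (0.84), and most unlike LOC551815 (-0.80). LOC410167 is also the nearest annotated gene on its left, 18900 bases away on the opposite strand, with a median of 703 CPM in the fat body. Like PTP-ER it was higher in antag-305 fat bodies, though not by a difference that passed (0.42 ± 0.22, FDR = 0.553), and in the 58 brains outside the cluster the pair had r = 0.17. LOC100576131 was most like LOC100578404 (0.85), LOC412426 (0.85) and LOC411960 (0.83), and most unlike LOC552774 (-0.79). Cyclin B3 was most like Ets97D-like (0.68), LOC412289 (0.67) and LOC410098 (0.67), and most unlike LOC408429 (-0.58). DCST1-like was most like LOC724552 (0.67), LOC727193 (0.63) and LOC411712 (0.61), and most unlike LOC551770 (-0.58). These values are the extremes of 8843 genes and carry no test.

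In the brain, the gene most like DCST1-like was its own neighbor. CSP3, which encodes a chemosensory protein, ends 107 bases before DCST1-like starts, on the same strand, and the pair had r = 0.64 over 67 brains, the highest of 9117 genes. The r was 0.49 in R2, 0.56 in R3 and 0.76 in R42, and 0.58 without bee 14 of R42, whose brain held 1103 CPM of CSP3 against at most 305.9 CPM in the others. It stayed the highest of 9117 genes, at 0.68, in the 58 brains outside the cluster. In the fat body, where CSP3 had a median of 18324 CPM, the pair had r = 0.50. CSP3 was not called between treatments in the fat body (-0.18 ± 0.12, FDR = 0.623), and neither was CSP4, the next gene on the other side, 1007 bases away (-0.25 ± 0.26, FDR = 0.763). LOC100576131 and its left neighbor LOC409218, on the opposite strand and 553 bases away, had r = 0.78 in those 58 brains, 0.93 over all 67 brains and -0.01 in the fat body. The other neighbors of the 4 genes had r between -0.47 and 0.71 in the 58 brains, and between -0.29 and 0.40 in the fat body, where none was called between treatments. In the brain 1 neighbor was called: LOC413668, 669 bases from cyclin B3 on the opposite strand, had 25.8, 40.2 and 56.1 CPM in antag-305 brains, against 23.2, 32.2 and 42.8 CPM in antag-missense brains (log2 difference 0.31 ± 0.050, edgeR, FDR = 2.1e-05). The neighbors were looked at after the values of the genes were known.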

How the data were processed

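RNA-seq libraries of the fat body and the brain of single bees were made by the authors with a stranded mRNA kit. Reads were trimmed of adapters, aligned to HAv3.1 with STAR v2.7.6a under default settings and counted with Subread v2.0.0 (featureCounts). What the authors deposited are raw counts, 1 file per library, for 12332 bee gene spans and 5 virus genomes, without normalization. Spans were matched to gene symbols by position (12331 matched).

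The 4 genes, the marker lists and the tests were chosen with earlier results of these data known. Libraries with a viral share of at most 0.5% were used. Genes were tested where at least 30 fat bodies or 32 brains had over 1 CPM, in R 4.3.3 with edgeR 4.0.16 (TMM factors, legacy quasi-likelihood test, Benjamini-Hochberg FDR under 0.05 over all genes), with colony and treatment in the model. Tissues were compared with the bee as a block, on 8282 genes. Relations used log2 CPM with a prior count of 2. Nothing in the labels says whether bees of a colony shared more than the colony, so P values measure the spread between these bees. At the median counts, counting error came to between 8.59% and 16.3% of the spread between bees for PTP-ER and LOC100576131 and for DCST1-like in the fat body, to 38.7% and 38.1% for cyclin B3 in the fat body and the brain, and to 49.5% for DCST1-like in the brain. In simulated data with 200 genes changed by 0.6 on the log2 scale, the treatment fit recovered 147 in the fat body and 192 in the brain. The simulated counts varied independently between genes and held no colony differences. A change of 0.6 is also larger than the fat body differences of cyclin B3 and LOC100576131, so recovery at their size was not measured.

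The genes named are the 4, those that overlap them, those nearest the threshold, and, in the fat body, the 3 most like and the 1 most unlike each of them. CSP3, CSP4, LOC409218, LOC413668, the brain companions, the library of bee 14 and the cluster of 9 brains were added after values were seen. The cluster came from Ward's method on log2 CPM, with the brains divided into 4, and was the one with the lowest mean of LOC100576131. Markers were matched by symbol. For Ras signaling, tyrosine phosphatases, cell division and DC-STAMP proteins no gene was matched by symbol, so no counts over these families are given. Alternatives were DESeq2's size factors and Wald test (version 1.42.0), no filter, all 69 libraries of a tissue, a viral share of at most 0.05%, no colony block, a block on bee number, offsets on gene length, each colony left out, a prior count of 0.5 and library size removed. A covariate for the first principal component, leaving out the brain of bee 14 of R42, and leaving out the 9 clustered brains were added after the data were seen.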

Additional observations from a re-analysis of the deposited data

Results flagged for a closer look

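The brain level of DCST1-like in antag-missense bee 20 of colony R42, at 4.32 CPM, lay far from the other 9 bees of its group, which ranged up to 2.696 CPM. The gap made up 0.479 of the group's range, over a critical value of 0.466. The level rests on 35 counts. Groups of at most 10 bees were checked for the 4 genes in this way, which gave 12 groups, and chance alone marks about 1 in 20.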

How the results depend on the processing

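The fat body differences of the 4 genes, which chose them, kept their sign in all alternatives run and moved by less than 1 within-group SD. The number of genes called with them varied. Against 6 genes (797 at an unadjusted P under 0.05), it was 10 with all 69 libraries, 14 with DESeq2's Wald test, 17 with the component as covariate, 86 without colony R42 (46 higher, 40 lower), 0 without R2 (edgeR, 351 unadjusted) and 0 without R3 (edgeR, 1448 unadjusted). In the brain, the 1034 called genes (499 higher, 535 lower) became 544 with the component as covariate (344 higher, 200 lower), 498 without R42 (325 higher, 173 lower) and 10 without R3. PTP-ER in the brain passed with a viral share of at most 0.05% (0.21), with DESeq2's Wald test (0.21), without bee 14 (0.22) and without R42 (0.38), and its interaction with colony passed with DESeq2's size factors (adjusted P = 0.0491), all 69 libraries (0.0345) and a viral share of at most 0.05% (0.0484). Brain differences that changed sign were those of DCST1-like without R3 (0.13, against -0.11 over all colonies), cyclin B3 with gene length offsets (-0.0030) and LOC100576131 with the component as covariate (0.043). The interaction called 1574 fat body genes without a filter, against 928, and 24 brain genes without bee 14, against 39. Without bee 14, DCST1-like was called in the brain of R3 over R2 (0.44). In the fat body of R42 over R3 it was not called with all 69 libraries (0.34). Without the 9 clustered brains, the signs turned for cyclin B3 (-0.027) and LOC100576131 (-0.15) of R3 over R2 and for LOC100576131 of R42 over R2 (-0.16) and over R3 (-0.011), cyclin B3 was called of R42 over R2 (-0.14) and over R3 (-0.12), and 1419 genes were called of R42 over R2, against 2179. The tissue difference of LOC100576131 passed without a filter (0.23). Why these calls changed was not tested.

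Over all 67 brains, as first planned, relations with the component removed turned to 0.51 for PTP-ER with cyclin B3, 0.54 for PTP-ER with LOC100576131 and -0.12 for DCST1-like with LOC100576131. With library size removed, PTP-ER with LOC100576131 had r = -0.21 (adjusted P = 0.186). PTP-ER with cyclin B3 turned to 0.061 in the 58 brains. In the fat body that pair passed with DESeq2's size factors (r = -0.33) and with the component removed (-0.35), and DCST1-like with LOC100576131 did not pass with DESeq2's size factors (-0.26). Of fat body against brain, PTP-ER turned to 0.013 with library size and 0.057 with the component removed, and cyclin B3 to 0.016 with DESeq2's size factors and 0.015 with the component removed.

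Bee numbers did not pair bees of the 2 treatments: same-numbered bees deviated together with a median r of -0.11 over 26 fat body pairs and 0.04 over 28 brain pairs, and 2 and 1 of them were most like their own number. With a block on bee number, 0 fat body genes were called (edgeR, 214 unadjusted), with log2 differences of 0.66 (PTP-ER), -0.55 (DCST1-like), -0.26 (cyclin B3) and -0.41 (LOC100576131), and 451 brain genes (301 higher, 150 lower). Without the block on the bee, the tissue difference of LOC100576131 passed (0.22).

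Among all alternatives, 284 of 304 results for the 4 genes, 62 of 76 counts of genes and 88 of 100 relations were scored as unchanged. Counts were unchanged within 1.5 times, and relations if they kept their sign and side of the threshold. The fat body treatment differences of the 4 genes were scored by a move under 1 within-group SD, whether or not they still passed. Their other results were scored by sign, where there was one, and threshold, and those without an adjusted P by sign only. DCST1-like in the brain rests on 12 to 98 counts per library, which limits its values. A viral share of at most 0.05% removed no fat body library. Each colony was 1 trial, so that without a colony a trial is also left out.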

Other observations

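The 4 fat body libraries left out for their viral share came from antag-missense bees and had not entered the choice of the genes. Scaled with all 69 fat bodies, PTP-ER had 32.5 CPM in bee 23 of R2, 28.3 in bee 27 of R2, 28.7 in bee 21 of R3 and 59.8 in bee 15 of R42, against a range of 19.3 to 113.9 and a median of 49.0 CPM in the 30 antag-missense fat bodies kept. These bees lay within the antag-missense range of PTP-ER. DCST1-like had 38.7, 41.3, 63.8 and 37.7 CPM in the same 4 bees, against a median of 61.9 CPM in the fat bodies kept. Cyclin B3 had between 21.2 and 26.3 CPM, against a median of 23.9 CPM. LOC100576131 had 32.2, 26.9, 30.4 and 52.3 CPM, against a median of 42.8 CPM, and bee 27 of R2 lay below the lowest fat body kept (28.3 CPM). The antag-305 medians, scaled without the left-out libraries, were 80.7 (PTP-ER), 36.8 (DCST1-like), 19.6 (cyclin B3) and 31.2 CPM (LOC100576131). Nearer these medians lay bees 23 and 27 of R2 and 15 of R42 for DCST1-like. For LOC100576131 they were bees 23 and 27 of R2 and 21 of R3, for cyclin B3 bee 23 of R2, and for PTP-ER none.

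Among the marker lists, no gene was called between treatments in the fat body by edgeR. The smallest P belonged to the neuronal gene Syt1 (log2 difference 0.49, FDR = 0.0767), followed by the prophenoloxidase gene PPO (0.30, FDR = 0.556) and the troponin gene TpnI (0.37, FDR = 0.571). In the other lists the smallest P belonged to Cyp4g11, nanos (0.13, FDR = 0.682), Mrjp7 (-0.13, FDR = 0.734), Hex70a (-0.17, FDR = 0.833) and the glial transporter Eaat-2 (-0.01, FDR = 0.992). In the brain, Cyp4g11 was called (1.82, FDR = 0.0348), but not without bee 14 of R42 (0.79, FDR = 0.0927). The genes of smallest P in the other lists were not called: TpnCIIIb (-0.21, FDR = 0.0692), Nrx-1 (0.17, FDR = 0.0756), Tsf1 (0.25, FDR = 0.0829), vas (-0.13, FDR = 0.1498), Mrjp6 (0.85, FDR = 0.172), Eaat-2 (0.05, FDR = 0.649) and PPO (-0.09, FDR = 0.674).

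In the 58 brains outside the cluster, LOC100576131 followed LOC409200 (r = 0.88), LOC408497 (0.88) and LOC412643 (0.87), group means removed, and had r = -0.84 with LOC408329. PTP-ER had r = 0.89 with LOC413428, LOC724344 and LOC726045 each, and -0.90 with ND1, a mitochondrial subunit of NADH dehydrogenase. Cyclin B3 had r of 0.63, 0.61 and 0.61 with LOC552346, LOC413512 and LOC100576717, and -0.57 with LOC102653748. Besides CSP3, DCST1-like had r = 0.55 with GstD1, a glutathione transferase gene, and 0.55 with LOC727007. These are the extremes of 9117 genes, in a tissue in which the median absolute r of all genes was 0.51 with PTP-ER, 0.32 with LOC100576131, 0.12 with cyclin B3 and 0.17 with DCST1-like.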
